A study of Mus musculus with 6 samples.

Results

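The genes described here encode the matrix metalloproteases, the Adamts proteases, their Timp and Reck inhibitors, and the plasminogen activators with their receptor. They were measured in pools of mouse embryos grown for 8 hours in narrow or wide cavities. The members were taken by name. Every array feature that names exactly 1 gene, with a symbol made of Mmp, Adamts or Timp and a number, was included, and Plau, Plat, Plaur and Reck were added. This gave 72 features for 48 of 19938 genes, made up of 22 Mmp, 18 Adamts and 4 Timp genes and the 4 added ones, and each gene was read from its brightest feature. The narrow group held 3 samples of CD1 embryos, an outbred stock, collected at embryonic day 5.0 and cultured in cavities of 90 µm diameter, named here narrow 1 to 3 after the numbers in the titles. The wide group held 3 samples of the same strain, age and culture time in cavities of 180 µm, named wide 1 to 3. The series contrasts culture with external mechanical cues and culture without them, and no group left uncultured was analysed here. With 30 whole embryos in each sample, all embryonic and extraembryonic tissues contributed to every value, and fewer cells of a type cannot be told apart from less RNA per cell.

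Matrix metalloproteases are zinc-dependent enzymes that cut collagens, laminins and other proteins of the extracellular matrix. Most are made as inactive proenzymes with a blocking prodomain, and Timp proteins inhibit the active enzymes by binding to them. Adamts proteases are secreted relatives with thrombospondin repeats that cut proteoglycans such as versican or trim procollagens. The plasminogen activators turn plasminogen into plasmin, which itself cuts matrix and can activate proenzymes. Around implantation, trophoblast cells use such enzymes to enter the uterine tissue, and the parietal endoderm makes a thick basement membrane.

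No member passed the test. In a limma fit across all genes with Benjamini-Hochberg adjustment, 0 of 48 members and 0 of 19938 genes passed at an adjusted p of 0.05 (0% of genes), and the adjusted p of every member was 1.00. At an unadjusted p under 0.05, 1 member was higher and 1 lower in narrow cavities, namely Mmp1a and Mmp11. That is 4.17% of the members, beside 3.40% of all genes (1.68% higher and 1.72% lower), so the share of the members lay near the background. Differences (narrow minus wide, log2 scale) were positive in 22 members and negative in 26, with a median of -0.0074, against 0.0011 over all genes. They ran from -0.18 to 0.37, and 41 of 48 lay within 0.1 of 0.

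**Figure D1:**
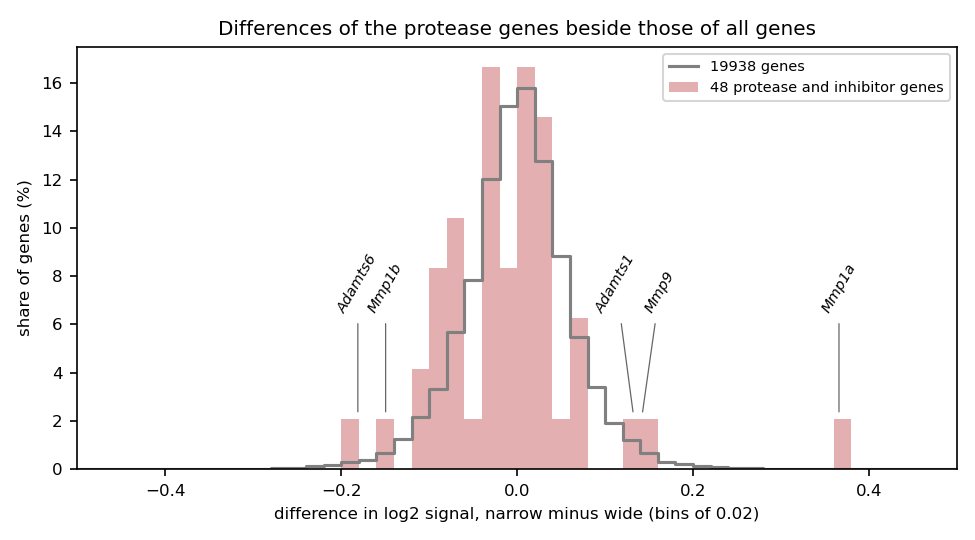
Share of genes (vertical axis, percent) by the difference in log2 signal, narrow minus wide (horizontal axis, bins of 0.02), for the 48 protease and inhibitor genes (filled bars) and all 19938 genes (grey line), of which 2 lie outside the range drawn. Most members sit within 0.1 of 0 like the other genes, and Mmp1a stands alone at 0.37.

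The groups did not overlap in 4 members, all lower in narrow cavities. These were Mmp11, Reck, Mmp1b and Mmp21, 8.33% of the members, where 3.54% of all genes separated in this direction and 7.70% in either. No member had all narrow samples above all wide samples, against 4.17% of all genes. With 3 samples a group, the smallest p of an exact two-sided permutation test on 1 gene is 0.1, so this count is a description.

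The precision was high enough to bound most members closely. The 95% interval of the difference reached 0.13 to either side in the median member, from 0.085 to 0.35. It stayed within a 1.5-fold change in either direction for 47 of 48 members, all but Mmp1a, and within 1.2-fold for 41. These intervals are of array signal, which bounds the RNA less well where a gene is dim.

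**Figure D2:**
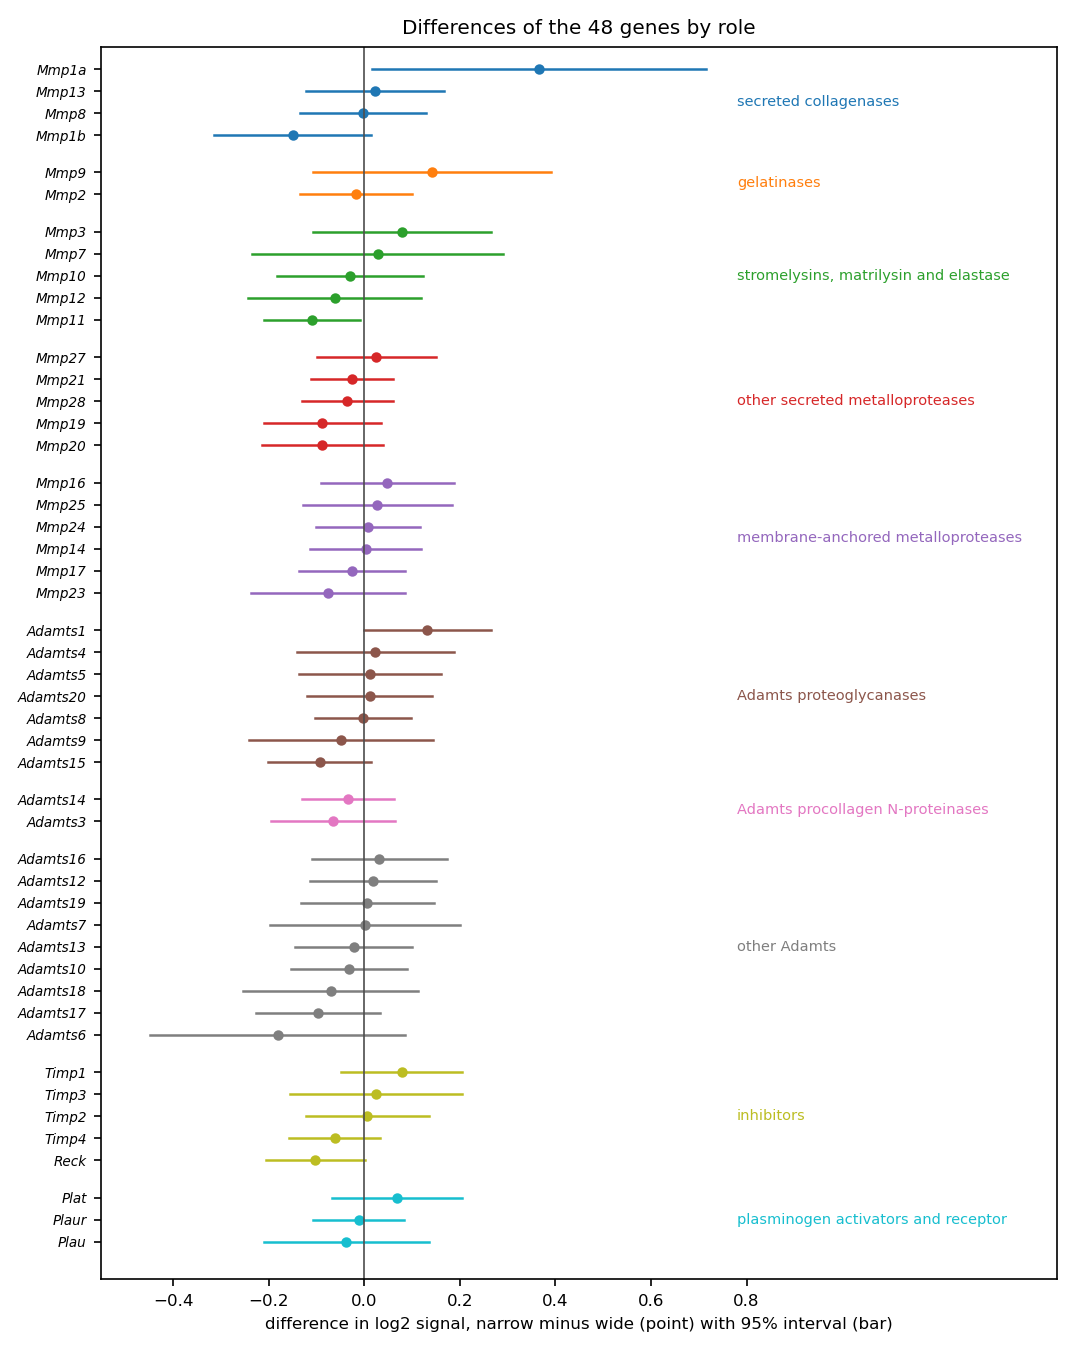
Difference in log2 signal (horizontal axis, narrow minus wide, point) with its 95% interval from the limma fit (bar) for each of the 48 genes, grouped and coloured by role. The intervals of Mmp1a and Mmp11 leave out 0, on opposite sides, and those of Adamts1 and Reck end close to it.

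Some of these genes gave dim signals. No background level accompanies these signals. The 1190 olfactory and vomeronasal receptor genes, mostly silent outside sensory tissue, served as a gauge, chosen after the data were seen. Their median signal was 5.35 and their 95th percentile 6.73 on the log2 scale. At or below that percentile were 13 of 48 members, comprising 9 Mmp genes, 3 Adamts genes and Timp4. Of all 19938 genes 5609 were, a similar share. For these a small difference could not be told from background. Of the 35 members above it, the 95% interval stayed within 1.5-fold for 34 and within 1.2-fold for 32. Leaving out 1 of the 6 samples moved the difference by over 1.5 times, or turned its sign, in 41 of 48 members. Levels are compared between samples, not between genes, since each gene has its own probes.

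Markers of several tissues were read against this gauge. Of all 19938 genes 14329 lay above it, so passing it does not by itself show that a tissue was present. All 9 epiblast, all 8 extraembryonic ectoderm and all 12 visceral endoderm markers were above the gauge. All 10 parietal endoderm markers were too, a list that shares Plat with the members. Of the 6 measured markers of trophoblast giant cells and the ectoplacental cone, Ctsq, Tpbpa and Psg17 were at or below the gauge and Hand1, Ascl2 and Mmp9, itself a member, above it. Of the maternal decidua list, Prl8a2, Lum and Hoxa11 were at or below the gauge and 7 of 10 above it. The blood and macrophage list had 5 of 8 measured genes at or below it, among them Ptprc. The arrays numbered 1 lay apart on the first principal component, at -10.6 for narrow 1 and -8.01 for wide 1, against 2.76 to 5.87 for the other 4.

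Among the secreted collagenases, a group named for the cutting of fibrillar collagen, Mmp1a had the largest difference of all members. This mouse collagenase, a counterpart of human MMP1, had log2 signals of 7.78, 7.99 and 7.52 in narrow 1, 2 and 3, against 7.17, 7.71 and 7.31 in wide 1, 2 and 3. Narrow 3 lay below wide 2, so the groups overlapped, while each narrow sample exceeded the wide sample of its own number. The means were 7.76 ± 0.23 in narrow and 7.40 ± 0.28 in wide pools (SD, n = 3 each). The difference was 0.37 ± 0.15 (SE), or 1.29-fold, with a 95% interval from 0.016 to 0.72. With the replicate number as a block, the differences of 0.61, 0.28 and 0.21 in the same-numbered pairs gave a limma adjusted p of 0.674. Leaving out each sample in turn moved the difference between 0.25 and 0.52, with the unadjusted p under 0.05 in 2 of 6 such fits, those without narrow 3 and without wide 2. Over all 13 alternatives that tested Mmp1a it was under 0.05 in 6.

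Mmp1b, its close relative, differed in the other direction. Its signals were 5.68, 5.66 and 5.59 in narrow pools and 5.71, 5.96 and 5.72 in wide pools. All narrow samples lay below all wide samples, while the signal was within the range of the silent receptor genes. The difference was -0.15 ± 0.07 (95% interval -0.31 to 0.015), and without wide 2 it was -0.07. The other collagenases were flat, with Mmp8, made by neutrophils, at 0.00 ± 0.06 and Mmp13 at 0.02 ± 0.06, and both were at or below the gauge. Probes of Mmp1a and Mmp1b were not examined here, so signal shared between these related genes was not tested.

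The gene pair sits in a cluster. In the RefSeq table of assembly GRCm38.p6, 10 members neighbour each other on chromosome 9, in the order Mmp13, Mmp12, Mmp1b, Mmp3, Mmp1a, Mmp10, Mmp8, Mmp27, Mmp20 and Mmp7. Only 3 other genes lie among them, none protein-coding. Within the cluster 5 differences were positive and 5 negative, with a median of 0.010, and 7 of the 10 were at or below the gauge. The 38 members elsewhere had a median of -0.015.

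The stretches below, 150 bases just upstream of the RefSeq start of Mmp1a, Mmp1b, Mmp11 and Reck, are shown for the member with the largest difference, its cluster neighbour with the opposite sign, and the separated members outside the cluster with the lowest unadjusted p. They are written 5′ to 3′ on the strand of the gene, from RefSeq on GRCm38.p6. Capitals mark the letters TGANTCA, which the AP-1 factor binds, and the TATA box TATAAA in Mmp1a and Mmp1b, and the GC box GGGCGG on either strand in Mmp11 and Reck.
Mmp1a, chr9:7463991-7464140, plus strand: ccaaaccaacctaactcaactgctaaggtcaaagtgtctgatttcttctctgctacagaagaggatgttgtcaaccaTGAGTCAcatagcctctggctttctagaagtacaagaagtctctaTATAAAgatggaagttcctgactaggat
Mmp1b, chr9:7388027-7388176, minus strand: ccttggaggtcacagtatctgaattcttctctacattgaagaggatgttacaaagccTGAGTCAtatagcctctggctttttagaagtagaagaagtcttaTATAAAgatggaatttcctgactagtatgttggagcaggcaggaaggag
Mmp11, chr10:75932503-75932652, minus strand: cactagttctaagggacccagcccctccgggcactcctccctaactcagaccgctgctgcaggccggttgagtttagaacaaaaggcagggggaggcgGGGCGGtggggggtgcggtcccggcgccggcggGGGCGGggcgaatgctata
Reck, chr4:43875380-43875529, plus strand: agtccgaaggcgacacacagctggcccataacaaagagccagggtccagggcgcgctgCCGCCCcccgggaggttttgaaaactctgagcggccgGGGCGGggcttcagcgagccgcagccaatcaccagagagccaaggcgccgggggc

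The upstream stretches of Mmp1a and Mmp1b matched at 107 of 125 aligned positions (85.6%), and both held 1 AP-1 match and 1 TATA box. Their array differences had opposite signs, that of Mmp1b at a signal at or below the gauge and with an interval that included 0. Promoters were found for 32 of the 48 members, 35 promoters in all. Members are counted below by gene, with a match in any promoter of the gene, and the background by promoter. In the 250 bases upstream, searched on both strands, the AP-1 letters were found in 9 of these 32 members, among them 8 of the 10 cluster genes and Plaur, where 6.75% of all 32851 promoters held them. TATAAA was found in 7 of the 10 cluster genes and in 9 members in all, against 12.4% of all promoters. The GC box was found in 0 of the 10 cluster genes and in 16 other members, against 32.7% of all promoters. The marked matches do not overlap in the stretches shown. A match is a description of letters and not evidence of binding.

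The gelatinases cut denatured collagen and collagen IV of basement membranes. Mmp9, which trophoblast giant cells make in quantity, had 9.40, 9.34 and 9.69 in narrow 1, 2 and 3, against 9.15, 9.41 and 9.44 in wide 1, 2 and 3. Narrow 3 was the highest sample and wide 1 the lowest. Of the other 4, narrow 1 and narrow 2 both lay below wide 2 and wide 3, against the direction of the mean difference. The difference was 0.14 ± 0.11 (95% interval -0.11 to 0.39), and it was 0.03 without narrow 3 and 0.05 without wide 1. Mmp2, the other gelatinase, had 8.77, 8.89 and 8.82 in narrow pools and 8.90, 8.79 and 8.84 in wide pools. Its difference of -0.02 ± 0.05 lay inside a 95% interval from -0.13 to 0.099.

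Among the stromelysins and their relatives, Mmp11, stromelysin 3, had the lowest unadjusted p of all members. Unlike most secreted relatives it is activated inside the cell by furin-type convertases. Its signals were 7.97, 8.05 and 8.05 in narrow 1, 2 and 3, against 8.16, 8.10 and 8.14 in wide 1, 2 and 3. Every narrow sample lay below every wide sample, with narrow 1 the lowest and wide 2 the nearest of the wide ones. The difference was -0.11 ± 0.04, or 1.08-fold lower in narrow cavities (95% interval -0.21 to -0.0088). The unadjusted p was under 0.05 in 3 of 6 fits that left out a sample and in 8 of all 14 alternatives, and the difference was -0.08 without narrow 1. The differences of the others did not stand clear of their errors, with Mmp3 (stromelysin 1) at 0.08 ± 0.08 (0.0052 without wide 2), Mmp7 (matrilysin) at 0.03 ± 0.11, Mmp10 at -0.03 ± 0.07 and Mmp12 (macrophage elastase) at -0.06 ± 0.08. Mmp3 and Mmp7 were at or below the gauge.

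The remaining secreted metalloproteases showed small differences. Mmp19 had a difference of -0.09 ± 0.05, which was -0.04 without wide 3, and Mmp20, the tooth enamel protease enamelysin, also -0.09 ± 0.05, both at or below the gauge. Mmp21 had 6.85, 6.85 and 6.87 in narrow pools and 6.88, 6.88 and 6.89 in wide pools. Its groups separated at a difference of only -0.03 ± 0.04 (95% interval -0.11 to 0.059), with SDs of 0.0070 in narrow and 0.0041 in wide pools. Mmp27 at 0.03 ± 0.05, at or below the gauge, and Mmp28 (epilysin) at -0.04 ± 0.04 completed this role.

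The membrane-anchored metalloproteases act at the cell surface, and Mmp14 is the main activator of Mmp2. Mmp14, named here for that role after its values were seen, had 8.74, 8.60 and 8.69 in narrow 1, 2 and 3 and 8.73, 8.65 and 8.65 in wide 1, 2 and 3. The groups were intermixed, with a difference of 0.0027 ± 0.05 and a 95% interval from -0.11 to 0.12. Mmp23 had -0.08 ± 0.07, which was -0.15 without narrow 1 and -0.03 without wide 1. Mmp16, at or below the gauge, had 0.05 ± 0.06. Mmp25, anchored by a lipid, had 10.09, 10.15 and 10.34 in narrow pools, against 10.18, 10.12 and 10.20 in wide pools, a difference of 0.03 ± 0.07. Mmp17 at -0.03 ± 0.05 and Mmp24 at 0.0084 ± 0.05 were as close to 0.

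**Figure D3:**
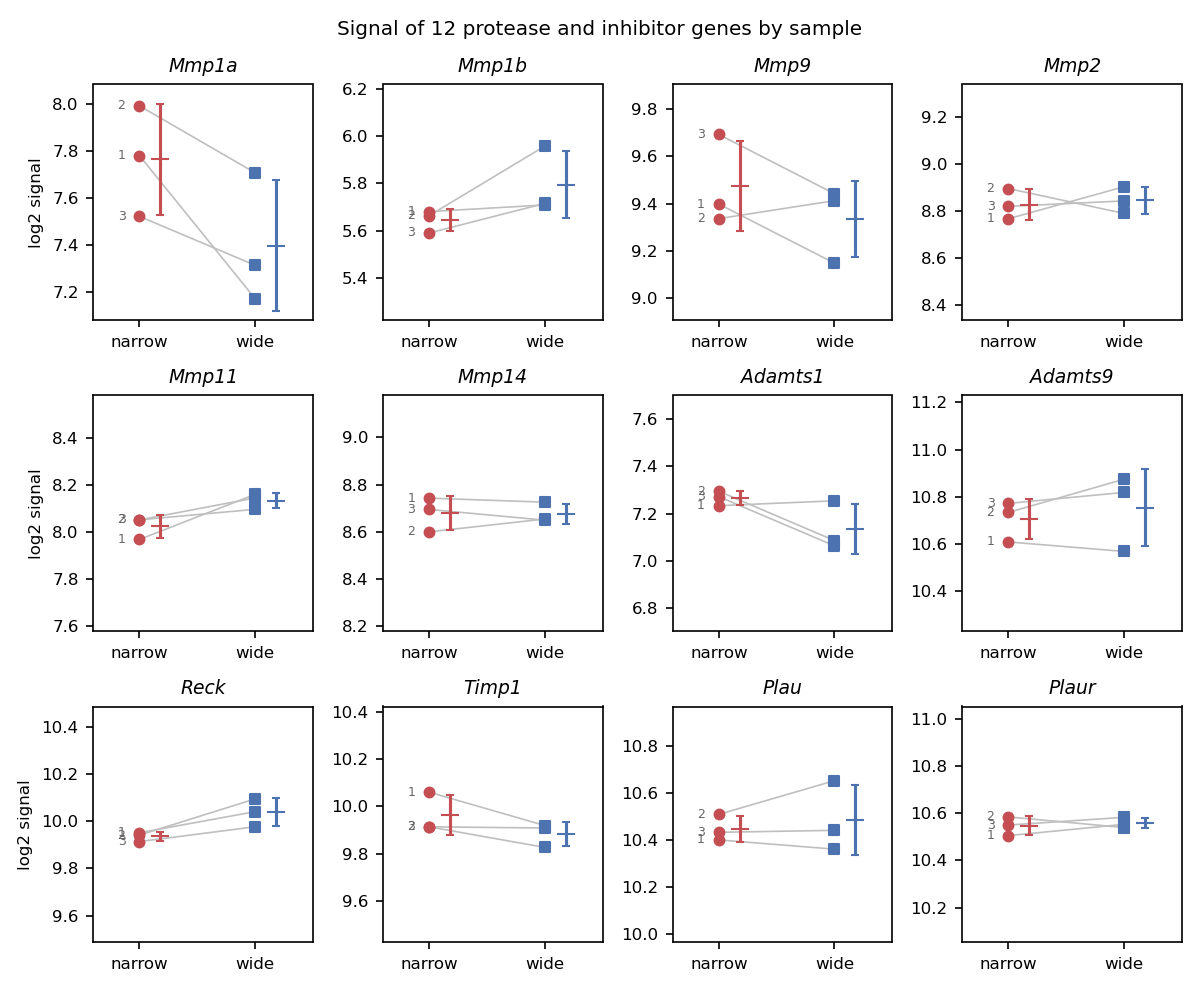
Log2 signal (vertical axis, each panel spanning 1 log2 unit) of 12 genes in the 3 narrow (circles, left) and 3 wide (squares, right) samples, with grey lines joining samples of the same number, printed beside the narrow points, and mean ± SD beside the points. Mmp1a falls to the right along all 3 lines, Mmp11, Reck and Mmp1b climb along all 3, and Mmp2, Mmp14 and Plaur cross.

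Of the 7 Adamts proteoglycanases, which cut versican and aggrecan, 4 differences were positive and 3 negative. Adamts1 had 7.23, 7.30 and 7.27 in narrow 1, 2 and 3, against 7.25, 7.09 and 7.06 in wide 1, 2 and 3. The wide samples 2 and 3 lay below all narrow ones, whereas wide 1 fell among them. The difference was 0.13 ± 0.06 with a 95% interval from just under 0 to 0.26, and 0.19 without wide 1. Adamts15 had 6.93, 7.02 and 6.97 in narrow pools and 7.01, 7.08 and 7.11 in wide pools. Its difference of -0.09 ± 0.05 had a 95% interval from -0.20 to 0.014 and was negative in all 3 same-numbered pairs.

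Adamts9 was read by 6 features. The feature used had 10.61, 10.73 and 10.77 in narrow 1, 2 and 3, against 10.57, 10.88 and 10.82 in wide 1, 2 and 3. Both arrays numbered 1 lay below the other 4 in all 6 features, which share the same RNA and are not replicates. The 6 differences between cavities ran from -0.12 to 0.020, 5 of them negative, and that of the feature used was -0.05 ± 0.08. The other proteoglycanases lay near 0, with Adamts4 at 0.02 ± 0.07, Adamts5 at 0.01 ± 0.06, Adamts8 at -0.0024 ± 0.04 and Adamts20 at 0.01 ± 0.06. Adamts5 and Adamts20 were at or below the gauge.

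The procollagen N-proteinases trim the amino end of procollagens. Adamts3 was read by 16 features, which did not agree. The brightest, used here, had 8.24, 8.11 and 8.27 in narrow pools and 8.25, 8.34 and 8.22 in wide pools, a difference of -0.07 ± 0.06. Of its 16 features 10 had positive and 6 negative differences, from -0.070 to 0.14, and the mean over all of them gave 0.03. Adamts14 had -0.03 ± 0.04.

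**Figure D4:**
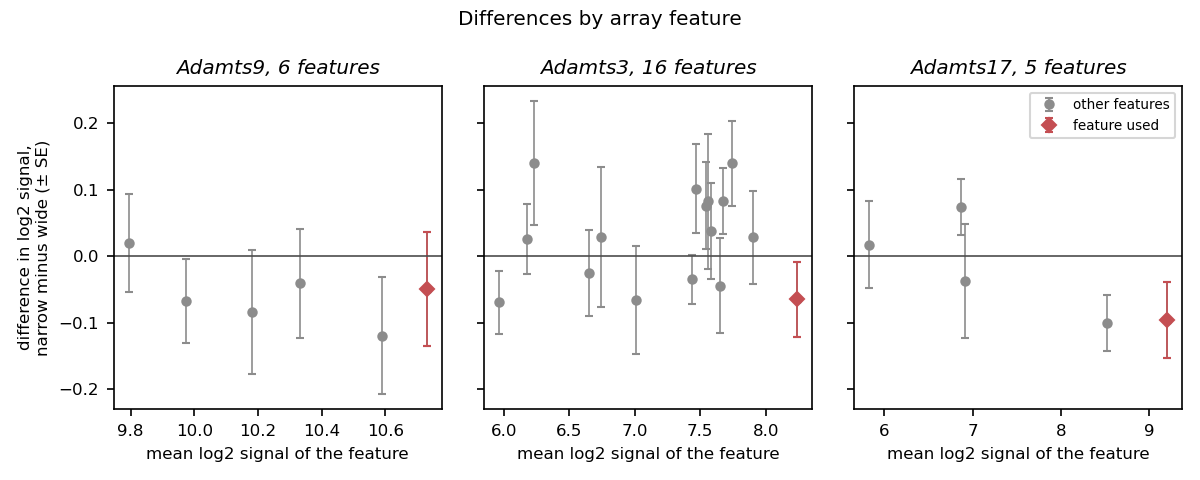
Difference in log2 signal between cavities (vertical axis, narrow minus wide, ± SE) against the mean log2 signal (horizontal axis) for each array feature of Adamts9, Adamts3 and Adamts17, with the brightest feature, used in the comparisons, as a diamond. The 16 Adamts3 features scatter on both sides of 0, and 5 of 6 for Adamts9 lie below it.

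Of the other 9 Adamts genes, 4 differences were positive and 5 negative. Adamts6 had the most negative difference of all members, -0.18 ± 0.12 (95% interval -0.45 to 0.085). Its signals were 6.45, 6.31 and 5.93 in narrow 1, 2 and 3, against 6.44, 6.44 and 6.36 in wide 1, 2 and 3. It rested on narrow 3, without which the difference was -0.03, and the gene was at or below the gauge. Adamts17 had -0.10 ± 0.06, with 3 of its 5 features negative, and the mean over its features gave -0.03. Without wide 3 the difference of the feature used was -0.05. The remaining 7 ran from -0.07 ± 0.08 for Adamts18 to 0.03 ± 0.06 for Adamts16, and the von Willebrand factor protease Adamts13 had -0.02 ± 0.05.

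The inhibitors showed no common direction, with 3 positive and 2 negative differences. Reck, a membrane-anchored glycoprotein that restrains several metalloproteases, had 9.95, 9.94 and 9.91 in narrow 1, 2 and 3, against 10.04, 10.10 and 9.98 in wide 1, 2 and 3. All narrow samples lay below all wide samples, with wide 3 the closest. The means were 9.94 ± 0.02 in narrow and 10.04 ± 0.06 in wide pools (SD, n = 3 each). The difference of -0.10 ± 0.04, or 1.07-fold lower in narrow cavities, had a 95% interval from -0.21 to 0.0011, and a limma adjusted p of 0.675 with the replicate block. Leaving out each sample moved it between -0.13 and -0.07.

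Timp1, a secreted inhibitor, had 10.06, 9.91 and 9.91 in narrow 1, 2 and 3, against 9.92, 9.83 and 9.91 in wide 1, 2 and 3. Narrow 1 stood above the rest, and the difference was 0.08 ± 0.05 (95% interval -0.048 to 0.20). Timp2, which also takes part in the activation of Mmp2 by Mmp14, had 9.07, 8.96 and 9.07 in narrow pools and 9.08, 8.94 and 9.07 in wide pools. Samples of the same number were nearly equal in it, and the difference was 0.0063 ± 0.06 (95% interval -0.12 to 0.14). Timp3, which binds to the matrix, had 9.62, 9.87 and 9.62 in narrow pools and 9.60, 9.77 and 9.66 in wide pools, a difference of 0.02 ± 0.08. Timp4 had -0.06 ± 0.04 and was at or below the gauge.

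The plasminogen activators and their receptor lay close to equal in both cavities. Plau, the urokinase-type activator, had 10.40, 10.51 and 10.43 in narrow pools and 10.36, 10.65 and 10.44 in wide pools, a difference of -0.04 ± 0.07. Plaur, its receptor at the cell surface, had 10.51, 10.58 and 10.55 in narrow pools and 10.55, 10.54 and 10.58 in wide pools, a difference of -0.01 ± 0.04 with a 95% interval from -0.11 to 0.083. Plat, the tissue-type activator and a marker of parietal endoderm, had 8.15, 8.00 and 8.15 in narrow pools, against 7.96, 8.02 and 8.12 in wide pools. Its groups overlapped at a difference of 0.07 ± 0.06 (95% interval -0.068 to 0.21), and it was 0.03 without wide 1.

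With the replicate number as a block, 5 members had an unadjusted p under 0.05, 1 higher (Mmp1a) and 4 lower (Mmp11, Reck, Mmp1b and Adamts15) in narrow cavities. That is 10.4% of the members, beside 7.25% of all genes (3.54% higher and 3.72% lower), and 0 members passed after adjustment, the lowest adjusted p among them being 0.674. All 3 same-numbered differences were negative in 10 members and positive in 2, Mmp1a and Timp1. These are 20.8% and 4.17% of the members, against 13.9% and 14.8% of all genes. Both arrays numbered 1 lay above the other 4 in 5 members, namely Timp1, Timp2, Mmp14, Mmp23 and Adamts6, where 12.2% of all genes did so. They lay below the other 4 in 6 members, among them Adamts9 and Plau, where 19.9% of all genes did so. Together these make 22.9% of the members, against 32.1% of all genes.

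Partners of these enzymes were read from lists chosen beside the members, and 0 passed after adjustment. In the plasminogen system 1 of 9 measured genes had an unadjusted p under 0.05, against 3.40% of all genes, namely the plasminogen receptor Plgrkt. It had 8.91, 8.85 and 8.91 in narrow 1, 2 and 3, against 8.75, 8.69 and 8.85 in wide 1, 2 and 3. The difference was 0.13 ± 0.05, with wide 3 level with narrow 2. Of 11 genes for activating convertases, surface serine proteases and their inhibitors, and the metalloprotease inducer Bsg, 0 reached an unadjusted p under 0.05. The smallest p among them was that of Prss8 (prostasin, 0.08 ± 0.06), and Furin stood at 0.0043 ± 0.05. Among 10 Adamts-like genes and regulators 0 did so. With the replicate block 2 did, where 7.25% of all genes did, Adamtsl1 at 0.12 ± 0.04 and Wfikkn2 at -0.10 ± 0.04 (errors of the blocked fit). The groups did not overlap in 2 of the 10, 1 in each direction, against 7.70% of all genes in either direction. These were Wfikkn2, at or below the gauge, whose narrow samples all lay below the wide ones, and Adamtsl3 at 0.14 ± 0.06, a gene at or below the gauge whose narrow samples all exceeded the wide ones. Among 8 Adam sheddases 0 had an unadjusted p under 0.05 by limma, with or without the block, with Adam10 at 0.07 ± 0.05. Among 18 matrix substrates 0 did so, with a median difference of -0.00037, from Col1a2 at -0.08 ± 0.05 to 0.07.

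Marker lists of other cell types were read beside the members. The mean log2 signal of the trophoblast giant cell and ectoplacental cone list was 7.80 to 7.95 in narrow pools and 7.77 to 7.87 in wide pools. It was 7.55 to 7.59 in narrow and 7.56 to 7.58 in wide pools for the decidua list. For parietal endoderm it was 10.79 to 10.82 in narrow and 10.73 to 10.79 in wide pools, and for blood and macrophages 6.68 to 6.74 in narrow and 6.71 to 6.86 in wide pools. In these 4 lists 0 genes had an unadjusted p under 0.05 by limma. With the replicate block 1 did, Thbd of the parietal endoderm list at 0.13 ± 0.05, where 7.25% of all genes did. Differences were positive in 8 of 10 parietal endoderm and 5 of 6 trophoblast genes, with medians of 0.044 and 0.060. For decidua they were positive in 5 of 10 genes and for blood and macrophages in 4 of 8. In the extraembryonic ectoderm list 2 of 8 genes had an unadjusted p under 0.05 without the block, against 3.40% of all genes. Both were lower in narrow cavities, with Esrrb at -0.22 ± 0.04 and Bmp4 at -0.21 ± 0.08. With the block 3 of 8 were under 0.05, all lower, against 7.25% of all genes. The list as a whole held 3 positive and 5 negative differences, with a median of -0.0012. Groups did not overlap in 2 of its genes lower and 1 higher in narrow cavities, where 7.70% of all genes separated in either direction. The higher gene was Tfap2c at 0.09 ± 0.05. The part of any of these cell types in the values of Mmp1a, Mmp11, Mmp9, Reck or Plat was not tested.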

How the data were processed

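RNA of 6 pools was hybridised to Affymetrix Mouse Gene 1.0 ST arrays, per the labels and the design text. The deposited values were log2 signals, a scale read from their range of 4.33 to 14.31. How the authors corrected, summarized and normalized them is not stated in the labels. Array medians of 7.62 to 7.67 show that they were on a common scale, which hides a change in total RNA. Of 28853 features 21789 named 1 gene in the platform annotation, and the feature with the highest mean signal stood for each of 19938 genes.

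Groups were compared with lmFit and eBayes of limma 3.58.1 in R 4.3.3 (two-sided, 6 samples, no covariate) with Benjamini-Hochberg adjustment over all genes. Errors are limma standard errors. Replicates are biological, per the design text. Deviations from the group means correlated at 0.516, 0.176 and 0.272 between samples sharing a number. As all were above 0.1, the numbers were taken to pair them and a blocked fit was added. Between samples of unlike number the correlations ran from -0.395 to 0.178. Narrow 2 correlated with wide 3 at 0.178 and with wide 2 at 0.176, so these values do not single out the pair numbered 2. On simulated data, changes of 0.5 in 200 genes were recovered, at a limma adjusted p under 0.05, in 82.6%. Alternatives were each sample left out, the block, a filter on dim genes, the mean over features, every feature, quantile normalization, a variance trend, samples numbered 2 and 3 alone, and array weights. Members and lists were chosen with earlier results of these data known. Named were members with an unadjusted p under 0.05 or separated groups, the 2 with the smallest p per role, the 6 with the highest signal, inhibitors and plasminogen genes, and from each partner list the genes under 0.05 or else the one with the smallest p. Other genes were named after their values were seen. Mmp15 and Adamts2 were not analysed here.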

Additional observations from a re-analysis of the deposited data

How the results depend on the processing

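By limma 0 genes passed after adjustment under each of the 14 alternatives. The 678 genes with an unadjusted p under 0.05 became 1446 with the replicate number as a block and 384 when only genes above the 50th percentile were kept, which tests fewer genes. Members with an unadjusted p under 0.05 are counted next with the share of all genes in brackets. They numbered 2 of 48 (3.40%), 5 with the replicate block (7.25%) and 4 with quantile normalization (3.72%). The count was 1 when every feature was tested (3.25%) and 1 in the samples numbered 2 and 3 (4.58%). These members numbered 2 to 5 when each sample was left out (2.49% to 4.97%), with 5 without wide 1 (4.18%). Neither Mmp1a nor Mmp11 was among them without narrow 1, wide 1 or wide 3, with array weights, or in the samples numbered 2 and 3. Mmp11 was also lost with a variance trend, and Mmp1a without narrow 2 and when every feature was tested, while Mmp1a lay under the 50th percentile of signal. Members with separated groups numbered 4 of 48 (7.70% of all genes), 2 of the 17 above the 50th percentile of signal (8.14%), 16 in the samples numbered 2 and 3 (33.3% of both members and all genes), and 6 to 11 when each sample was left out, 12.5% to 22.9% of the members against 14.5% to 20.4% of all genes. The median difference ran from -0.027 to 0.010 over fits that left out a sample and was 0.010 in the samples numbered 2 and 3. Of 434 values of 32 named genes 416 kept their sign, 18 changed it and 0 were called. Leaving out a sample moved Mmp2 between -0.052 and 0.012, Mmp16 between -0.0024 and 0.091, Plau between -0.099 and 0.046, Adamts9 between -0.14 and 0.011, Plaur between -0.031 and 0.0088, Mmp25 between -0.047 and 0.081, Timp2 between -0.040 and 0.045 and Timp3 between -0.060 and 0.072. Mmp2 was 0.041 and Plaur 0.0062 in the samples numbered 2 and 3, Mmp2 was 0.0061 with array weights, Timp2 was -0.0041 with quantile normalization and Adamts3 0.027 as the mean over its features. Causes were not tested. The replicate block changed no call after adjustment. Chosen after the data were seen, the count over the 35 members above the silent receptor genes was again 2. That is 5.71% of these members, against 3.22% of the 14329 genes above those receptor genes. In the simulation the noise was independent between arrays and the fit had no block. A difference of 0.25 passed at a limma adjusted p under 0.05 in 2% of the changed genes, so changes of that size would mostly be missed there. Noise shared by arrays of the same number was not simulated.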
